A study of Mus musculus with 6 samples.

Results

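The genes described here encode the respiratory chain and ATP synthase of the mitochondrion, taken complex by complex. They were chosen by symbol, with earlier results of these data known. The rule took array rows annotated with exactly 1 gene symbol beginning with Nduf followed by a, b, c, s or v, Uqcr, Cox followed by a digit of the nuclear subunit series, or Atp5, together with Sdha to Sdhd, Cyc1 and Cycs. The rule found 91 genes on 118 rows, of 19935 genes on 28815 rows in all. Of these, 36 belong to complex I, 4 to complex II, 9 to complex III, 17 to complex IV and 17 to complex V, 1 is cytochrome c, and 7 are complex I assembly factors of the Ndufaf family, which the rule also takes in. No filter on low values was applied, so 0 members were filtered out. Another 6 rows carry several symbols (Cox7c with a pseudogene, Ndufb4 with Ndufb4b, Ndufs5 with a pseudogene) and were left out.

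The samples are 3 Dicer KO and 3 Dicer WT arrays of total RNA, each from untreated CD4+CD62L- T cells that flow cytometry had separated out of mouse lymph nodes. Dicer KO animals carried Dicer lox/lox and were CD4Cre pos; Dicer WT controls carried Dicer lox/lox and were CD4Cre neg. Both groups therefore carry the floxed allele, and the controls carry no Cre, so that the presence of Cre and the loss of Dicer cannot be told apart. Cre driven by the Cd4 promoter is known to act from the thymus onward and so also in cells that become CD8 T cells, and the sources used here do not say whether animals were pooled, nor their strain or age. The labels call the cells resting; CD62L is an adhesion molecule that naive T cells carry.

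Dicer is the ribonuclease that cuts microRNA precursors into mature microRNAs, which repress messenger RNAs by pairing with them. The respiratory chain passes electrons taken from NADH at complex I and from succinate at complex II through ubiquinone to complex III, then through cytochrome c to complex IV, which hands them to oxygen. Complexes I, III and IV pump protons, and complex V lets the protons flow back through its membrane part, Fo, to drive ATP synthesis in its soluble head, F1. Most subunits are encoded in the nucleus and a few in mitochondrial DNA. The core subunits carry the redox centres or the catalytic sites, to which the large core proteins of complex III, Uqcrc1 and Uqcrc2, are added here although they carry neither, while the supernumerary subunits surround them and serve assembly and stability. Resting T cells are known to make much of their ATP in this way.

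The deposited values are log values centred on the median of each row's 6 arrays. They show differences between arrays but no expression levels. The log base is not stated, and every fold below reads it as base 2. Differences are Dicer KO minus Dicer WT with the standard error of limma's linear model, whose moderated test was adjusted by Benjamini-Hochberg over all 19935 genes. A gene is called where that adjusted p is under 0.05. A row's median lies midway between its 2 middle arrays, so those 2 values are equal in size and opposite in sign. The precision of each value is limited by the 3 arrays per genotype. Dicer1 itself had 0.21, -0.02 and -0.09 in Dicer KO arrays and 0.12, 0.02 and -0.10 in Dicer WT arrays, a difference of 0.02 ± 0.09 (limma, adjusted p = 0.949). The groups overlapped. The sources used here do not say whether its probes lie in the deleted exons, so this value does not check the labels.

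The promoters of 4 genes are printed first, because they belong to called genes. Atp5g2 and Uqcrh, lower in Dicer KO cells, are the called genes with a motif match among those searched, and Atp5b and Sdha had the largest rises. The called genes Uqcrc2, Atp5a1 and Atp5mpl had no promoter sequence available here and were not searched. Each sequence is the 250 bases upstream of the gene's start, from RefSeq on build GRCm38.p6, read 5′ to 3′ on the gene's strand. Atp5g2 lies at chr15:102671048-102671297 on the minus strand, Uqcrh at chr4:116075071-116075320 on the minus strand, Atp5b at chr10:128083057-128083306 on the plus strand and Sdha at chr13:74350241-74350490 on the minus strand. Capitals mark matches to the core motifs named below, which stand for NRF1 in Atp5g2 and for an ETS factor such as GABP in Uqcrh.
Atp5g2: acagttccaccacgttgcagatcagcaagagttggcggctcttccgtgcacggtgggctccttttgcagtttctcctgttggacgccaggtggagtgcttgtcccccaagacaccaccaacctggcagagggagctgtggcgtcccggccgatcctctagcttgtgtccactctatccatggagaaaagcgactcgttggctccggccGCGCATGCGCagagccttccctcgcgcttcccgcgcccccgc
Uqcrh: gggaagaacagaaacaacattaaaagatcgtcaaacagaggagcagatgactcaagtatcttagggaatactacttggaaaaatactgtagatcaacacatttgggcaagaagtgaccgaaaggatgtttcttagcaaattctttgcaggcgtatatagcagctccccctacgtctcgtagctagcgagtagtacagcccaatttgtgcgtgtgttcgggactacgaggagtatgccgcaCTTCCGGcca
Atp5b: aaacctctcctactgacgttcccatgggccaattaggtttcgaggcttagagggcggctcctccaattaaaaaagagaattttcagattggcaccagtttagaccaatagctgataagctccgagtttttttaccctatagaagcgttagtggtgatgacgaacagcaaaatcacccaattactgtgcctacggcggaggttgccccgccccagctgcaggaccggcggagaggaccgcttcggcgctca
Sdha: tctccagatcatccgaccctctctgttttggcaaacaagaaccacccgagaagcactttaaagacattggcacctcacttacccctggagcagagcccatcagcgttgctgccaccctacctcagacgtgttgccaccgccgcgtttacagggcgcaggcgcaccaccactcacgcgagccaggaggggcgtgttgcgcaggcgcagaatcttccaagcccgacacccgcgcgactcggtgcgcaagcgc

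In Atp5g2 the capitals hold 2 overlapping matches to the NRF1 core, one on each strand, whose first bases lie 42 and 39 bases before the start. In Uqcrh the ETS match begins 10 bases before the start. The Atp5b and Sdha windows hold no match to any of the motifs searched, which says only that those letters are not there. NRF1, GABP, ERR factors and YY1 are known regulators of nuclear genes for mitochondrial proteins. Matches were counted on both strands in windows of 300 bases, 250 before to 50 after the start, of which 74 of the 91 members and 27025 genes in all had one. The NRF1 core CATGCGC was held by 16 members (21.6%), against 4.04% of all windows. The ETS core CCGGAAG was held by 17 members (23.0%), against 9.12% of all windows. The YY1 core GATGGCG was held by 11 members (14.9%), against 3.66%, and the ERR core AAGGTCA by 7 (9.46%), against 4.66%. TATAAA was held by 8 (10.8%), against 14.2% of all windows. A match is not a site of binding. The 16 members with the NRF1 core had a median difference of -0.03, against -0.08 in the 58 without it, and the 17 with the ETS core had -0.04, against -0.09 in the 57 without it. The 7 members with the ERR core had -0.18, against -0.04 in the 67 without it, the 11 with the YY1 core had -0.09, against -0.07, and the 8 with TATAAA had -0.02, against -0.09. None of these differences between medians was tested.

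The genes of the chain did not move as a block. Among the 91 genes, 4 were higher in Dicer KO cells, namely Atp5b, Sdha, Uqcrc2 and Atp5a1, and 6 were lower, namely Atp5mpl, Cox7a2l, Atp5g2, Uqcrh, Cox7b and Atp5d. The higher calls are 4.40% of members, against 5.94% of all genes, and the lower calls are 6.59%, against 2.79% of all genes. In either direction 8.73% of all genes were called. Of the 91 differences 30 were above 0 and 61 below it, with a median of -0.09 and quartiles of -0.19 and 0.04, beside a median of -0.01 over all genes. The 3 arrays of each genotype did not overlap in 23 members that were lower in Dicer KO (25.3%, against 12.7% of all genes) and in 7 that were higher (7.69%, against 13.5% of all genes). At an unadjusted p under 0.05 there were 28 members (30.8%), against 21.5% of all genes. More transcript per cell and a shift in the mix of sorted cells cannot be told apart in such bulk samples.

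**Figure D1:**
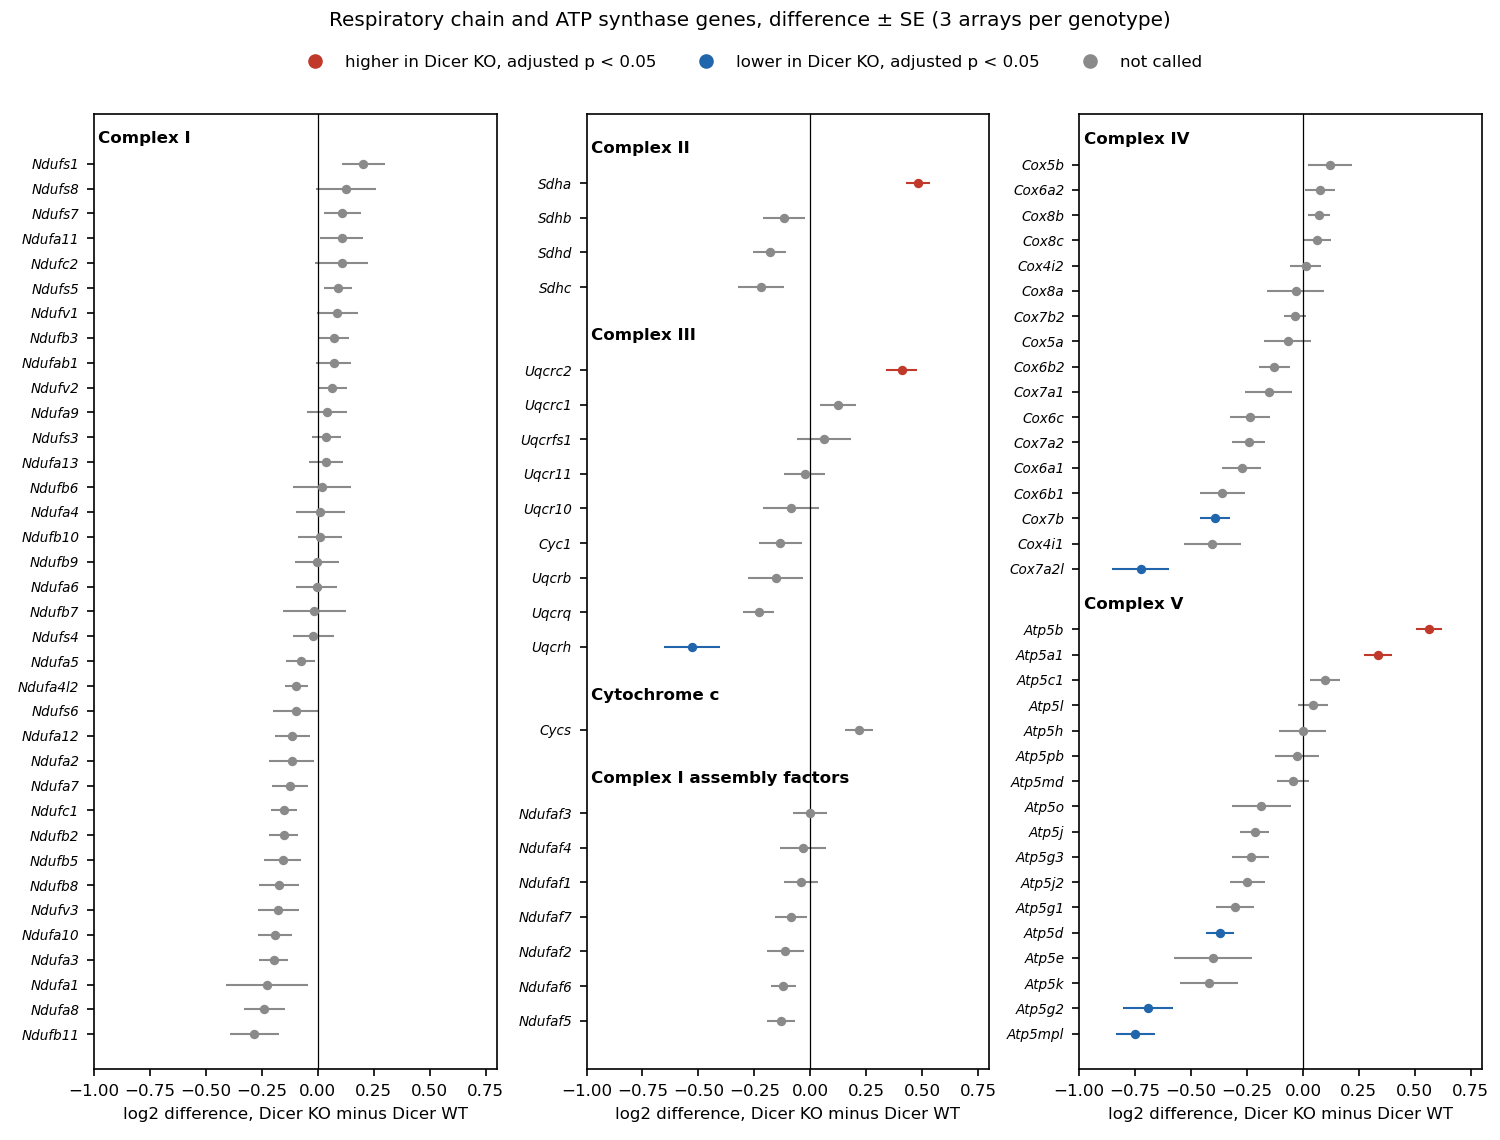
Difference in log2 value, Dicer KO minus Dicer WT, with its standard error, for each of the 91 genes, grouped by complex along the vertical axis (3 arrays per genotype). Red marks the 4 genes higher and blue the 6 genes lower in Dicer KO at an adjusted p under 0.05, and complex I has no called gene on either side.

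In complex V, the catalytic subunits of the F1 head were higher in Dicer KO cells, while 2 genes of the membrane part and 1 of the F1 stalk were lower. Atp5b encodes the beta subunit, which holds the catalytic sites. Its values were 0.22, 0.38 and 0.28 in Dicer KO arrays and -0.30, -0.28 and -0.22 in Dicer WT arrays. All Dicer KO arrays lay above all Dicer WT arrays, and the difference of 0.56 ± 0.06 (limma, adjusted p = 0.00277) was the largest rise among the 91 genes and amounts to 1.48-fold. Atp5a1 encodes the alpha subunit, which alternates with beta around the head. It had 0.11, 0.18 and 0.31 in Dicer KO arrays and -0.18, -0.14 and -0.11 in Dicer WT arrays. The groups did not overlap, and the difference was 0.34 ± 0.06 (limma, adjusted p = 0.0203). Atp5c1, the gamma subunit that turns inside the head, had a difference of 0.10 ± 0.07 and overlapping arrays.

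The small subunits at the foot of the F1 stalk had negative differences instead. Atp5d, the delta subunit, had -0.22, -0.16 and -0.12 in Dicer KO arrays and 0.21, 0.12 and 0.29 in Dicer WT arrays. Every Dicer KO array was below every Dicer WT array, and the gene fell by 0.37 (SE 0.06, limma, adjusted p = 0.0135). Atp5e, the epsilon subunit that sits beside it, had a difference of -0.40 ± 0.18, with overlapping groups, since Dicer KO 3 was at 0.04 and Dicer WT 2 at -0.04. Its Dicer WT arrays spread most, up to 0.62 in Dicer WT 3. Over the 5 F1 genes 2 were called higher (40%, against 5.94% of all genes) and 1 lower (20%, against 2.79%). Their median difference was 0.10. It came to -0.00 when arrays were centred within signal level classes (explained after the complexes) and to 0.06 without Dicer KO 2.

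Of the 12 genes of Fo and the peripheral stalk, 11 had negative differences. In this group 2 were called lower (16.7%, against 2.79% of all genes) and none higher. The median of -0.23 stayed between -0.30 and -0.14 under all 16 alternative settings run. Atp5mpl encodes the small proteolipid of the ATP synthase membrane sector. It had -0.53, -0.34 and -0.25 in Dicer KO arrays and 0.40, 0.25 and 0.47 in Dicer WT arrays. These groups were well apart, and its difference of -0.75 ± 0.09 (limma, adjusted p = 0.00389) was the largest fall among the members, with Dicer WT 1.68-fold over Dicer KO. Atp5g2 is 1 of 3 genes that encode the same mature c subunit, the protein of the rotating membrane ring. It had -0.55, -0.39 and -0.20 in Dicer KO arrays and 0.20, 0.25 and 0.49 in Dicer WT arrays, without overlap, and a difference of -0.69 ± 0.11 (limma, adjusted p = 0.0115). Its 3 array rows gave between -0.72 and -0.65, and each of the 3 was called by itself.

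The other c subunit genes, Atp5g1 and Atp5g3, had smaller negative differences that were not called. Atp5g1 had -0.34, -0.09 and -0.06 in Dicer KO arrays and 0.06, 0.17 and 0.19 in Dicer WT arrays, a difference of -0.30 ± 0.09 (limma, adjusted p = 0.0797). Atp5g3 had a difference of -0.23 ± 0.08 (limma, adjusted p = 0.14), and its groups touched at 0 without overlapping. In all 3 genes the lowest of the 6 arrays was Dicer KO 1 and the highest was Dicer WT 3. Of the other membrane subunits, Atp5k (subunit e) had -0.42 ± 0.13 and Atp5j2 (subunit f) -0.25, in both cases with arrays that did not overlap. In the peripheral stalk, Atp5j (coupling factor 6) had -0.22 and Atp5o, the subunit that ties the stalk to the head, -0.19. Atp5pb (subunit b) and Atp5h (subunit d) had -0.03 and -0.00, Atp5md had -0.04, and Atp5l (subunit g) had 0.05. The separate array rows of Atp5pb, Atp5h and Atp5l lay on both sides of 0, within -0.07 and 0.12.

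**Figure D2:**
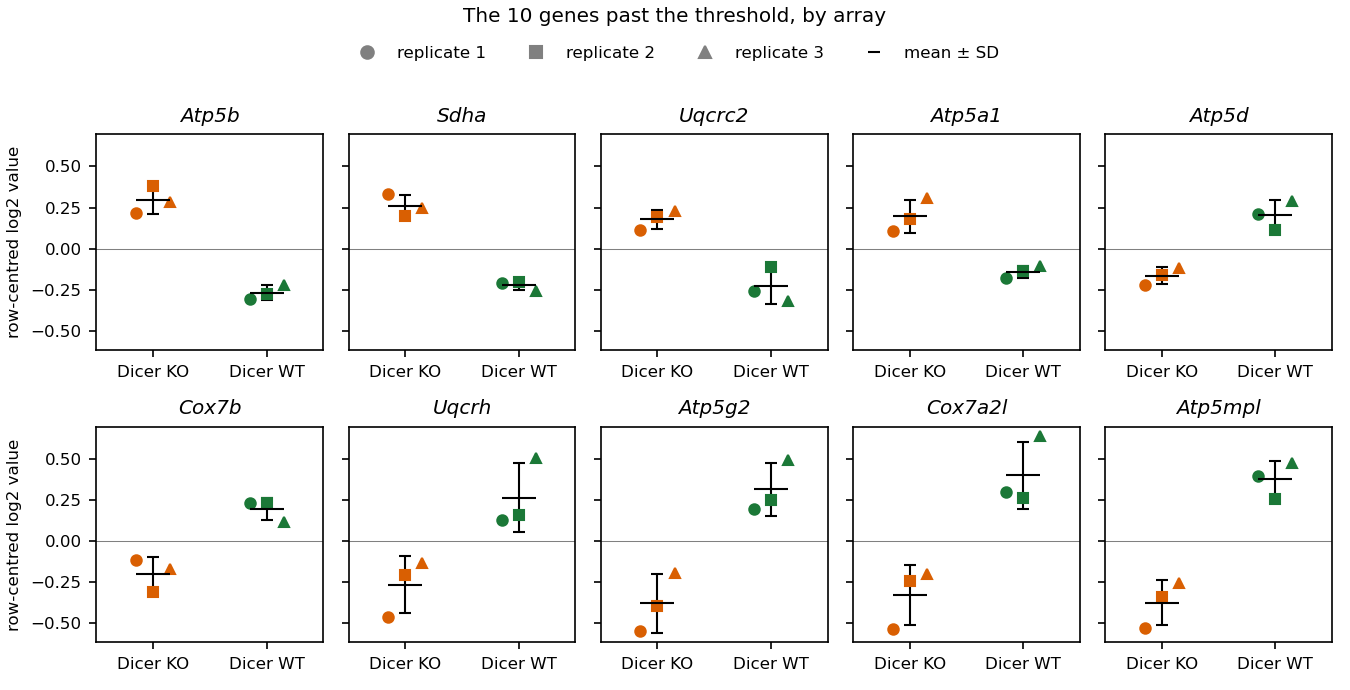
Row-centred log2 value on the vertical axis for the 10 called genes, with each array as a point (symbols give the replicate number, orange Dicer KO, green Dicer WT) and the mean ± SD as a bar. In all 10 genes the 3 Dicer KO arrays lie on one side of the 3 Dicer WT arrays, and in Atp5mpl, Atp5g2, Uqcrh, Cox7a2l and Atp5d the array farthest down is Dicer KO 1 and the array farthest up is Dicer WT 3.

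Complex II, succinate dehydrogenase, joins the chain to the tricarboxylic acid cycle. Sdha, the flavoprotein that oxidises succinate, had 0.33, 0.20 and 0.24 in Dicer KO arrays and -0.21, -0.20 and -0.26 in Dicer WT arrays. The groups were separated by more than either group's spread, and the difference was 0.48 ± 0.05 (limma, adjusted p = 0.00329), or 1.40-fold. The other 3 genes had negative differences with overlapping arrays, none called. Sdhb, the iron-sulfur subunit, had -0.12 ± 0.09, and the membrane anchors Sdhc and Sdhd had -0.22 ± 0.10 and -0.18 ± 0.07. The difference of Sdha from its partners was not tested.

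Complex III had 1 call in each direction, the core protein gene Uqcrc2 higher and the supernumerary subunit gene Uqcrh lower. Each is 11.1% of its 9 genes, against 5.94% of all genes called higher and 2.79% called lower. None of its redox subunit genes was called. The 4 genes counted as core had a median of 0.09, which ran between 0.0012 without Dicer WT 2 and 0.17 without Dicer WT 3, with 0.05 without Dicer KO 3 and 0.16 without Dicer KO 1. Uqcrc2, a large core protein on the matrix side, had 0.11, 0.19 and 0.23 in Dicer KO arrays and -0.26, -0.11 and -0.32 in Dicer WT arrays. Its groups did not overlap, and its difference was 0.41 ± 0.07 (limma, adjusted p = 0.0129). Its partner Uqcrc1 had 0.12 ± 0.08, the Rieske iron-sulfur protein Uqcrfs1 0.06 ± 0.12 and cytochrome c1, Cyc1, -0.14 ± 0.10, all with overlapping arrays. The 5 supernumerary genes were all below 0, with a median of -0.16 (-0.08 without Dicer WT 1). Uqcrh, the hinge protein that helps cytochrome c dock on cytochrome c1, had -0.46, -0.21 and -0.13 in Dicer KO arrays and 0.13, 0.16 and 0.51 in Dicer WT arrays. Its groups did not overlap, and it fell by 0.53 (SE 0.12, limma, adjusted p = 0.0451). This call was lost whichever single array was left out, with limma adjusted p between 0.0563 and 0.122. Uqcrq had -0.23 ± 0.07 and Uqcrb -0.16, while the 2 rows of Uqcr11 lay on both sides of 0 around a mean of -0.03.

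Cytochrome c, encoded by Cycs, carries electrons between complexes III and IV and, once released from mitochondria, activates caspases. It had 0.16, 0.09 and 0.06 in Dicer KO arrays and -0.07, -0.21 and -0.05 in Dicer WT arrays. The groups did not overlap, yet the difference of 0.22 ± 0.06 was not called (limma, adjusted p = 0.0781). It was called when the gene was read from its most variable row alone (adjusted p = 0.042), since its 3 rows gave between 0.08 and 0.33.

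Complex IV, cytochrome c oxidase, showed most of its negative differences in the subunits that all tissues use. Of its 10 general subunit genes 9 were below 0, with a median of -0.26. There were 2 calls, both lower (20%, against 2.79% of all genes). The median stayed between -0.36 and -0.19 under the alternatives run. In 7 of the 10 (70%, against 12.7% of all genes) every Dicer KO array lay below every Dicer WT array. Cox7a2l, a factor that helps complexes III and IV join into supercomplexes, had -0.54, -0.24 and -0.20 in Dicer KO arrays and 0.30, 0.26 and 0.64 in Dicer WT arrays. Its groups were well apart, and its difference was -0.73 ± 0.13 (limma, adjusted p = 0.0158), with Dicer WT 1.65-fold over Dicer KO. Cox7b, a small membrane subunit, had -0.12, -0.31 and -0.17 in Dicer KO arrays and 0.23, 0.23 and 0.12 in Dicer WT arrays. It did not overlap either and fell by 0.39 (SE 0.07, limma, adjusted p = 0.0154), although its 2 rows gave -0.56 and -0.23 and only 1 of them was called by itself.

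Among the general subunits that were not called, Cox4i1, the subunit through which ATP is known to inhibit the enzyme, had -0.40 ± 0.13 (limma, adjusted p = 0.112). Cox6b1, which bridges the dimer on the outer side, had -0.36 ± 0.10 (limma, adjusted p = 0.0767). Cox6a1, Cox7a2 and Cox6c had -0.27, -0.24 and -0.24, each without overlap of arrays. Cox5a and Cox8a had -0.07 and -0.03, and Cox5b had 0.12 ± 0.10. The 7 isoforms known from muscle, lung or testis (Cox4i2, Cox6a2, Cox6b2, Cox7a1, Cox7b2, Cox8b and Cox8c) lay within -0.15 and 0.08, with a median of 0.01 and no call. Ndufa4, counted with complex I by its name and now known as a subunit of complex IV, had a difference of 0.01 ± 0.11.

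Complex I, the largest and the entry point for NADH, had 36 measured genes and none called in either direction, with differences between -0.28 and 0.20 and a median of -0.01. By limma 5 of the 36 were under an unadjusted p of 0.05 (13.9%, against 21.5% of all genes), and the median ran between -0.08 and 0.05 when 1 array was left out. All 6 measured core genes had positive differences, with a median of 0.10. With arrays centred within signal level classes, 3 of the 6 were positive and the median was -0.00. Without Dicer KO 3, 4 of the 6 were positive and the median was 0.02. With all arrays the largest difference belonged to Ndufs1, the iron-sulfur subunit of the electron input module. It had 0.25, 0.02 and 0.01 in Dicer KO arrays and -0.04, -0.01 and -0.27 in Dicer WT arrays. The difference was 0.20 ± 0.09 (limma, adjusted p = 0.273). Its groups did not overlap but touched near 0. The other core genes overlapped: Ndufs8 had 0.13 ± 0.13, Ndufs7 0.11 ± 0.08, Ndufv1, which binds NADH, 0.09 ± 0.09, Ndufv2 0.06 ± 0.06 and Ndufs3 0.04 ± 0.07. For Ndufs3, Ndufv1 and Ndufv2 the sign turned under 1 or 2 of 16 alternative settings.

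Of the 30 supernumerary genes of complex I, 20 were below 0, with a median of -0.09. That median was -0.03 without Dicer KO 1 and -0.05 without Dicer WT 3, and without both arrays it was 0.02, with 15 of the 30 above 0. Ndufa3 and Ndufc1 had the lowest p in the complex. Ndufa3 had -0.12, -0.01 and -0.14 in Dicer KO arrays and 0.15, 0.16 and 0.01 in Dicer WT arrays, a difference of -0.20 ± 0.06 (limma, adjusted p = 0.123). Ndufc1 had a difference of -0.15 ± 0.06 (limma, adjusted p = 0.172), though its 2 rows gave -0.27 and -0.03, the latter with overlapping arrays. In the gene values neither gene's groups overlapped, though in Ndufa3 they nearly met around 0. The widest spread was in Ndufa1, a small membrane subunit, whose Dicer KO arrays ran -0.47, -0.13 and 0.25 and whose Dicer WT arrays ran -0.02, 0.02 and 0.34. Ndufb11 had the lowest difference, -0.28 ± 0.11, and Ndufa11 and Ndufc2 the highest among the supernumerary genes, 0.11 each, though the 2 rows of Ndufa11 gave 0.26 and -0.04. The 7 Ndufaf assembly factors, which build complex I and leave it, were all below 0 by small amounts, between -0.13 for Ndufaf5 and -0.00 for Ndufaf3, with a median of -0.09 and none called. Ndufaf6 had -0.12 ± 0.06.

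The members also varied from array to array within a genotype. Dicer KO 1 was the lowest of the Dicer KO arrays in 73.6% of the 91 genes, against 36.5% of all genes, and Dicer KO 3 was the highest of them in 67.0%, against 39.8%. Dicer WT 3 was the highest of the Dicer WT arrays in 59.3%, against 36.4% of all genes. Median values over the 91 genes were -0.13, -0.01 and 0.03 in Dicer KO arrays and -0.00, 0.01 and 0.09 in Dicer WT arrays. The median difference of the members was -0.05 without Dicer KO 1, with 40 of the 91 above 0, and -0.04 without Dicer WT 3, with 36 above 0. With Dicer KO 1 and Dicer WT 3 left out together, a choice made after seeing the data, the median was -0.00 and 43 of the 91 differences were above 0. All 10 calls were kept in that fit, and Ndufs8 (0.35) and Uqcrb (-0.36) were added, for 5 higher and 7 lower. Because these values guided the choice of arrays, kept or added calls there are no further check. Dicer KO 1 and Dicer WT 3 were at -0.21 and 0.10 in Ndufs8 and at 0.10 and -0.16 in Uqcrb, against the direction called. Differences shrank in Uqcrh (-0.31), Cox7a2l (-0.50), Atp5g2 (-0.52) and Atp5mpl (-0.62), and grew in Atp5b (0.62) and Atp5a1 (0.40). The median of complex III turned positive, to 0.09, and that of complex II came to -0.03, beside -0.09 without Dicer KO 1 alone and -0.23 without Dicer KO 3 alone.

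**Figure D3:**
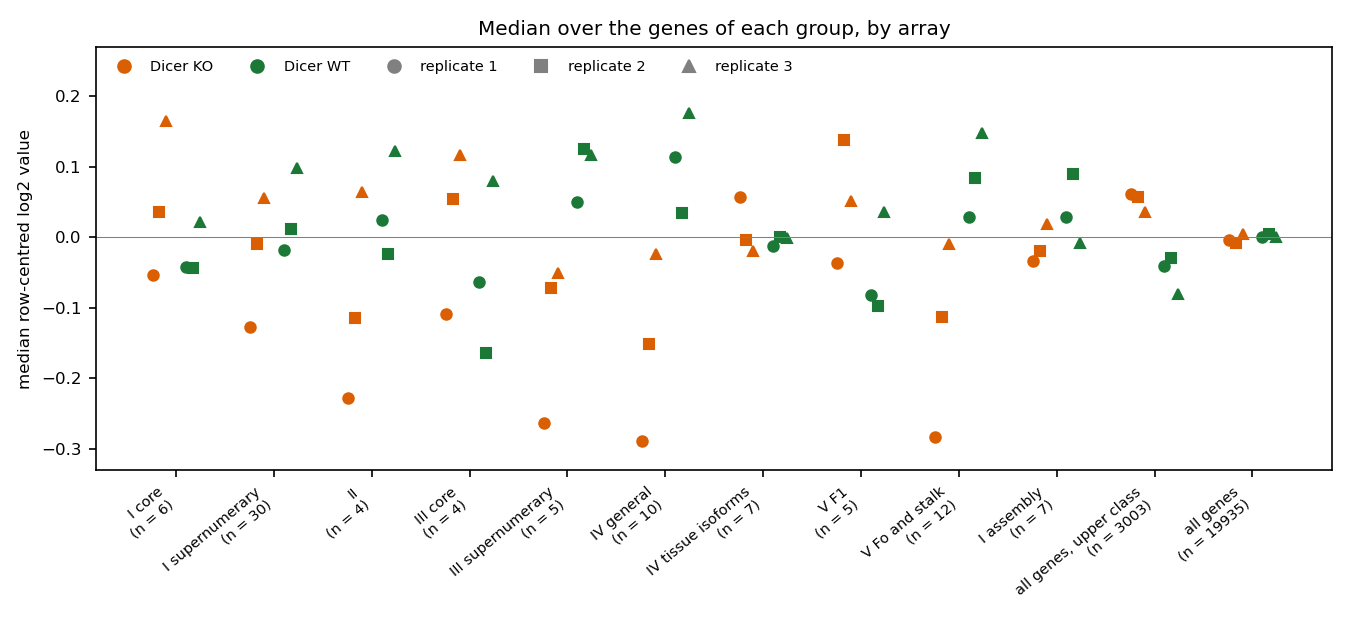
Median row-centred log2 value over the genes of each group named on the horizontal axis, with 1 point per array (orange Dicer KO, green Dicer WT, symbols for replicate number). Dicer KO 1 is the lowest point for the supernumerary subunits of complexes I and III, the general subunits of complex IV and the Fo and stalk genes, whereas over all genes the 6 arrays lie close to 0.

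Whether a gene passed the threshold also depended on which arrays were kept. Sdha, Atp5b and Atp5mpl remained called whichever array was left out. Cox7a2l and Atp5g2 were lost without Dicer KO 2, Uqcrc2 and Atp5d without Dicer KO 2 or Dicer WT 1, and Cox7b and Atp5a1 without Dicer KO 2, Dicer WT 1 or Dicer WT 2. Without Dicer KO 2 the member calls numbered 2 higher and 1 lower, and without Dicer WT 1 they numbered 2 and 3. Calls over all genes also fell, from 1741 to 729 without Dicer KO 2 and to 849 without Dicer WT 1. No called gene changed sign under any of the alternatives run on it.

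How high a gene's array signal lay also went with direction in these data. The deposited numbers keep a rounding step that shows whether the value before centring was at least 8 on its log scale (the upper class, 3003 genes) or between 4 and 8 (the lower class). Among upper-class genes 21.6% were called higher and 4.4% lower in Dicer KO, with a median difference of 0.12 and 69.7% of differences above 0. The 36 members in that class had 4 calls higher (11.1%) and 5 lower (13.9%), a median of -0.08 and 41.7% above 0. The 46 members in the lower class had 1 lower call (2.17%, against 2.575% of all genes in that class). None was called higher, against 3.17% of that class. Their median was -0.09 and 11 were above 0 (23.9%), beside a median of -0.02 and 40.55% above 0 over the class. Of the core genes of complexes I and III and the F1 genes, 5 of 6, 3 of 4 and 4 of 5 were in the upper class, against 8 of 30 supernumerary complex I genes and 6 of 12 Fo and stalk genes. The part of signal level in the differences between core and other subunits was not tested. When arrays were centred within each level class, 3 members were higher and 8 lower, Atp5a1 was lost, and Ndufa3 and Atp5j were added among the lower.

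**Figure D4:**
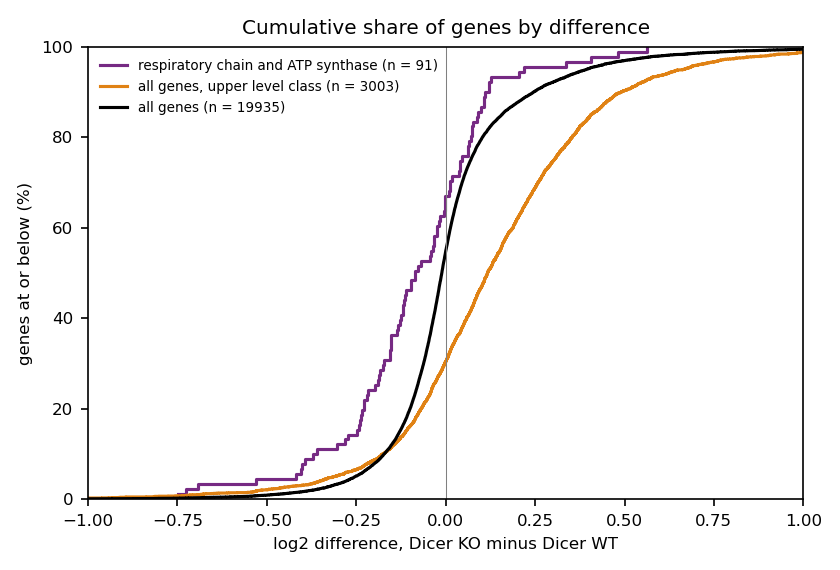
Cumulative share of genes, in percent on the vertical axis, at or below each log2 difference, Dicer KO minus Dicer WT, on the horizontal axis, for the 91 respiratory chain and ATP synthase genes (purple), the 3003 genes of the upper level class (orange) and all 19935 genes (black). The purple line lies left of the others through its middle part, with a median of -0.09 against 0.12 for the upper class and -0.01 for all genes.

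Genes that surround the chain were read from lists under other symbols. Of the 13 subunits that mitochondrial DNA encodes, only ND3 and COX2 had a value, with differences of 0.06 and 0.12, overlapping arrays and no call. Atpif1, the inhibitor that blocks ATP synthase when it runs backwards, had -0.27, -0.16 and -0.20 in Dicer KO arrays and 0.22, 0.22 and 0.16 in Dicer WT arrays. Its groups were widely apart, and it fell by 0.41 (SE 0.05, limma, adjusted p = 0.00497). Of 35 measured assembly factors outside the Ndufaf family 1 was higher (2.86%, against 5.94% of all genes) and 3 lower (8.57%, against 2.79%). Their median was -0.07. Atpaf1, which assembles the F1 head, was higher by 0.30 ± 0.06, while Sdhaf1, which helps insert iron-sulfur clusters in complex II, fell by 0.39, Cox14 by 0.27 and Cox10, which makes the heme of complex IV, by 0.22.

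Of 12 measured tricarboxylic acid cycle genes 10 were above 0, with a median of 0.21. None was called lower, and 3 were called higher (25%, against 5.94% of all genes and 21.6% of upper-class genes). These were Sucla2 (0.32 ± 0.08), Fh1 (0.31 ± 0.06) and Ogdh (0.31 ± 0.07), and 9 of the 12 genes belong to the upper level class. Of 17 nuclear regulators and genes of mitochondrial DNA expression Yy1 alone was called, higher by 0.32 ± 0.06. That is 5.88% of the list called higher, against 5.94% of all genes, and the list's median was 0.08. NRF1's gene, Nrf1, had 0.13 ± 0.05 (limma, adjusted p = 0.218), and Ppargc1a, the coactivator of mitochondrial biogenesis, had -0.03. Of 11 carriers and electron feeders 1 was called (9.09%, against 5.94% of all genes called higher). This was Gpd2, the glycerol phosphate dehydrogenase that feeds ubiquinone, higher by 0.50 ± 0.11. Slc25a4, an ADP/ATP carrier, had -0.54 ± 0.14 and was not called (limma, adjusted p = 0.0562).

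A microRNA with known ties to the chain is miR-210, which in human cells targets ISCU, NDUFA4, SDHD and COX10. Its sequence is shown because Dicer makes it, with the seed, bases 2 to 8, in capitals, from RefSeq on GRCm38.p6 at chr7:141221407-141221428, minus strand.
miR-210-3p: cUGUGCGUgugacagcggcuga

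These genes were picked after their values were seen. Ndufa4 had a difference of 0.01, Sdhd -0.18 and Cox10 -0.22, and Iscu, the scaffold for iron-sulfur clusters, had 0.22 ± 0.06 (limma, adjusted p = 0.0839). Iscu had 0.03, 0.16 and 0.21 in Dicer KO arrays and -0.13, -0.05 and -0.08 in Dicer WT arrays, without overlap. The array row of the precursor, Mir210, had a difference of 0.07 ± 0.07 (limma, adjusted p = 0.698), and the array gives no value for the mature microRNA. The 4 genes did not share a direction.

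The sorted cells were checked against marker lists. All 7 T cell markers (Cd3d, Cd3e, Cd3g, Cd2, Cd5, Cd28 and Cd4) were in the upper level class. Of these 2 were called higher (28.6%, against 21.6% of upper-class genes), Cd4 (0.67 ± 0.07) and Cd2 (0.57 ± 0.06). Cd5 (-0.44 ± 0.06) was called lower (14.3%, against 4.4% of upper-class genes). None of the 9 measured B cell markers was in that class, but all 9 had positive differences, with a median of 0.29. Bank1 (0.71 ± 0.11) was the 1 call among the 9 (11.1%, against 5.94% of all genes called higher). Array medians of the 9 B cell markers were 0.06, 0.05 and 0.08 in Dicer KO arrays. In Dicer WT arrays they were -0.56, 0.01 and -0.27, so that Dicer WT 1 and Dicer WT 3 stood low. Of 7 myeloid markers 1 was called higher (14.3%, against 5.94% of all genes), Lyz2 (0.69 ± 0.12). By contrast 4 were below 0, down to -0.25 for Cd68, and the median was -0.02. Of the CD8, plasma cell, dendritic, NK and erythroid markers none was called. All 4 NK and 2 of 3 plasma cell markers were above 0, and all 4 dendritic, 2 CD8 and 1 erythroid markers below it. Klrd1, an NK marker, had 0.87 ± 0.30, with 1.27, 0.93 and -0.01 in Dicer KO arrays. Cd8b1 had -0.26 ± 0.07, without overlap of arrays. Centred values hold no 0 level for a marker. With Dicer WT 1 and Dicer WT 3 left out, the lone Dicer WT array was assumed to vary like the others. Then limma called 0 members in either direction, among 213 genes in all, with 15 members under an unadjusted p of 0.05, and the median difference of the members was -0.05. The 10 genes called with all arrays kept their signs there, in a fit with 1 array in an arm. Differences were 0.57 for Atp5b, 0.46 for Sdha and -0.63 for Atp5mpl, against 0.56, 0.48 and -0.75 with all arrays. Uqcrc2 came to 0.29 and Atp5d to -0.28, against 0.41 and -0.37, while the fall of Cox7b was larger than with all arrays. The part of other cells in the results was not tested.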

How the data were processed

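Total RNA of sorted T cells was labelled and hybridised to Affymetrix MoGene 1.0 ST arrays, per the labels' protocols. The authors deposited 1 table of log2 values (base not stated, read here as 2) of 28815 rows by 6 arrays; MAS5 is named, with no version or role, per the submitters' processing notes. Each row had been centred on its median (largest absolute row median 5e-07), values ran from -2.59 to 3.00 and 0 were missing. Depth does not apply to arrays; precision rests on 3 arrays per genotype, described in the series' design text as biological replicates.

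Rows were named through the platform annotation: 21780 had 1 symbol, 1605 several and 5430 none here, and 21689 matched the RefSeq table of GRCm38.p6. Rows of a gene were averaged (998 genes, 18 members). Dicer KO and Dicer WT were compared with lmFit and eBayes of limma 3.58.1 in R 4.3.3, with Benjamini-Hochberg adjustment over 19935 genes and a threshold of 0.05, without a replicate block. With 3 against 3 an exact permutation test cannot go below p = 0.1, so none is given for single genes. The fit was tested on simulated data. Alternatives were other array scalings, the upper level class alone, the most variable row, array weights, robust eBayes, the replicate block and arrays left out. Named genes are the called ones, core subunits, the 2 lowest p in groups without calls, the extremes, genes with rows on both sides of 0, and called genes of the other lists; other names illustrate ranges. The members and lists were chosen with earlier results of these data known. Gene lengths and protein sequences were not used here.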

Additional observations from a re-analysis of the deposited data

How the results depend on the processing

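No result changed sign while called. Of the member calls (4 higher, 6 lower), leaving out 1 array at a time gave 2 to 4 higher and 1 to 7 lower, and leaving out Dicer WT 1 and Dicer WT 3 together, which leaves 1 Dicer WT array, gave 0 and 0, although all 10 differences kept their sign (Sdha 0.46, against 0.48 with all arrays). All genes then had 192 higher and 21 lower, against 1184 and 557 with all arrays; 1 array out gave 553 to 1070 higher and 176 to 527 lower. Genes of the other pathway lists (6 higher, 4 lower) had 0 to 5 higher and 1 to 3 lower with 1 array out, 0 and 0 without Dicer WT 1 and Dicer WT 3, and 3 higher with arrays centred within level classes. Testing the upper level class alone, which has fewer genes, gave 174 lower calls over all its genes and 1 among the pathway lists, whose 4 lower calls with all genes lie outside that class; array weights gave 897 and 9, and the cause was not tested. Median differences moved as follows. Complex II, -0.15, was 0.13 in the upper level class (2 of its 4 genes) and -0.0251 without Dicer KO 1 and Dicer WT 3. Complex III, -0.09, lay between -0.134 and 0.0467 with 1 array out, the highest being without Dicer KO 1, and was 0.0919 without Dicer KO 1 and Dicer WT 3. Complex IV, -0.13, was -0.23 with arrays centred within level classes and -0.24 in the upper level class. The assembly factors, -0.09, were -0.15 without Dicer WT 1 and Dicer WT 3 and -0.13 without Dicer KO 1 and Dicer WT 3, and have no value in the upper level class. The median of all members, -0.09, was -0.0037 without Dicer KO 1 and Dicer WT 3. The sources used here do not say whether replicate numbers pair the samples. Deviations of same-numbered arrays correlated at 0.27, -0.08 and 0.30 across genes, which does not settle it. With the replicate block, 4 members were higher and 12 lower, the additions being Atp5g1, Atp5k, Cox4i1, Cox6a1, Cox6b1 and Ndufb11, and not every array correlated best with its own number. A planned split of members by protein length was not run, because no protein table was used here.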
